A study of Mus musculus with 17 samples.

Results

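Gene expression after induction of LIN28B was examined in common myeloid progenitors (CMPs), the marrow cells that give rise to granulocytes, monocytes, erythrocytes and platelets. RNA-seq libraries of CMPs sorted by flow cytometry from adult bone marrow were taken by their labels alone, 7 of the 17 libraries of the series. In 4 of them LIN28B was inducible, and 3 were wild type. The 4 came from 2 mouse lines: libraries 1 and 5 are labelled inducible LIN28B, and libraries 4 and 6 inducible LIN28B with vavcre, which the design text describes as induction limited to blood cells. Vav-Cre is a Cre recombinase driven by the Vav gene's regulatory DNA, which is active across blood cells. The wild-type libraries are numbers 2, 5 and 6. The strain is C57BL/6J throughout. The treatment text, doxycycline exposure to switch on Lin28b, stands on every library of the series, wild type included, so whether the wild-type marrow also received the drug is not clear from the labels. The sources used here do not give age, the species of the transgene or whether a library is 1 animal or a pool. Nor do the labels say that libraries are separate animals. The p-values therefore measure only the spread between libraries within groups, taken over all 17 libraries of the series. The comparison asks which changes all 4 LIN28B libraries share against all 3 wild-type libraries.

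LIN28B, found in fetal and undifferentiated cells, binds RNA. It holds on to the precursors of the let-7 microRNAs and blocks their maturation. Mature let-7 pairs through its seed, bases 2 to 8, with sites in the 3′ untranslated regions (3′ UTRs) of messages and lowers them, and among its best-known targets are Hmga2, the Igf2bp genes, Nras, Arid3b and Lin28b itself. In blood the axis is known for the switch between fetal and adult types of progenitor and lymphocyte. Messenger RNA was measured here, and the microRNAs themselves were not.

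The mature let-7 sequences from RefSeq (GRCm38.p6) are shown because their shared seed, in capitals, defines the target sites searched for below. The sequences are written 5′ to 3′, and the arms shown differ only outside the seed.
mmu-let-7a-5p: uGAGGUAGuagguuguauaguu
mmu-let-7b-5p: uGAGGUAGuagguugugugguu
mmu-let-7c-5p: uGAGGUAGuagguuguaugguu
mmu-let-7d-5p: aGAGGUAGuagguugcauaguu
mmu-let-7g-5p: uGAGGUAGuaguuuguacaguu
mmu-let-7i-5p: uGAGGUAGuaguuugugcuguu
Mature let-7b lies at chr15:85707325-85707346 on the plus strand, near a mature let-7c at chr15:85706616-85706637.

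The libraries held 14957111 to 22218742 counts in the LIN28B lines and 15712282 to 19086842 counts in wild type. Values below are CPM (counts divided by library size, with TMM factors), and they compare 1 gene between libraries, not genes with each other. Genes with at least 1 count numbered 13786 and 13882 in the inducible LIN28B libraries and 12079 and 12635 in the vavcre libraries. Wild type had 15644, 13922 and 14912, each more than any LIN28B library. What this means for genes with few counts was not tested. The vavcre libraries also stood apart from the others. The SD of the log2 difference over genes was 0.636 between the vavcre libraries, against 0.251 between the inducible LIN28B libraries without vavcre and 0.234 to 0.282 between wild-type libraries. Of 6897 genes with at least 10 CPM in wild type, vavcre library 4 had 26 under 1 CPM and vavcre library 6 had 13, against 0 in the other 5 libraries. For this reason many results are given for the line without vavcre as well as for the mean of the lines. Where only the mean is given, a call may rest on the vavcre line. Mpo, the granule enzyme myeloperoxidase of myeloid progenitors, lay at 5156 to 10690 CPM in the LIN28B libraries and 9493 to 11440 CPM in wild type. Among genes of the sorted surface proteins, the stem cell and progenitor marker Cd34 lay at 5.77 to 7.38 CPM in the LIN28B libraries and 6.85 to 10.1 CPM in wild type. Of 8 tested genes of the sort and lineage exclusion list, 1 was lower in the mean of the LIN28B lines at an adjusted p under 0.05 by edgeR, against 7.86% of all genes tested. It was Fcgr2b, of the Fc receptors that separate these progenitors, with 0.182 and 0.0537 CPM in the inducible LIN28B libraries and 0.127 and 0.253 CPM in the vavcre libraries, against 0.546, 0.820 and 0.822 CPM in wild type (log2 fold change -2.24, adjusted p = 0.0306). It rests on 13 counts in the LIN28B libraries and 40 counts in wild type, did not pass in either line alone, and did not pass without any single wild-type library, without inducible LIN28B library 5 or without vavcre library 4. Fcgr3, of the same receptor family, had 3.67 to 19.4 CPM in the LIN28B libraries and 11.1 to 14.4 CPM in wild type, which overlap. Kit and Ly6a were at 0 in all 17 libraries: the deposited counts are per transcript and set aside reads that match several transcripts, so such genes could not be checked. In bulk samples, fewer cells of a type and less RNA per cell cannot be told apart.

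Of 13558 genes tested with edgeR over all 17 libraries, 893 (6.59%) were higher and 1065 (7.86%) were lower in the mean of the LIN28B lines than in wild type, at a Benjamini-Hochberg adjusted p under 0.05. A called gene was taken as shared when all 4 LIN28B libraries lay above, or all below, all 3 wild-type libraries. That left 509 shared genes (3.75%) on the higher side and 489 (3.61%) on the lower side, of which 86 and 250 changed by at least 2-fold. Most of these calls came from the vavcre line, which alone had 1691 genes higher (12.5%) and 1943 lower (14.3%) than wild type. The fit took the same spread per gene for all groups, so it may understate the error of the vavcre line and overstate that of the line without vavcre. The line without vavcre had 69 genes higher (0.509%) and 40 lower (0.295%). A fit without both vavcre libraries, chosen after the data were seen, called 138 higher and 105 lower in that line. A gene not called in that line may thus owe this in part to the fit. The change differed between the lines for 2799 genes (20.6%).

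A smaller core was called in each line by its own test and in the same direction, a definition added after the data were seen: 48 genes higher (0.354%) and 18 lower (0.133%). Of these 66 genes, 65 also had no overlap between the 4 LIN28B and 3 wild-type libraries, and the exception was the sterol reductase gene Dhcr7. A call in each line against the same wild-type libraries makes this likely, so it is a description. Of the 13558 genes tested, called or not, 829 had no overlap on the higher side and 969 on the lower side. The line difference was called for 8 of the 66. With the 4 LIN28B libraries treated as 1 group in a fit of the 7 libraries, which sets the difference between the lines against the effect, edgeR called 11 of 10377 genes (0.106%), and 1178 had an unadjusted p under 0.05. Of the 11, 9 were in the core: Fos, Jun, Dusp1, Ier2, Cenpv, Emid1 and Itgb7 on the higher side and Ms4a6c and the transcript NR_033146 on the lower side. The others, Ctsg and Bpifc, were also lower. Leaving out wild-type library 2 brought the called genes to 537 higher and 558 lower. Leaving out wild-type library 6 or inducible LIN28B library 1 brought the lower count to 591 or 569. Leaving out 1 wild-type library, the core ranged from 22 higher and 10 lower without library 6 to 29 higher and 11 lower without library 5. All 66 core genes were still called in the mean of the lines in each of these fits, which their choice also makes likely.

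**Figure D1:**
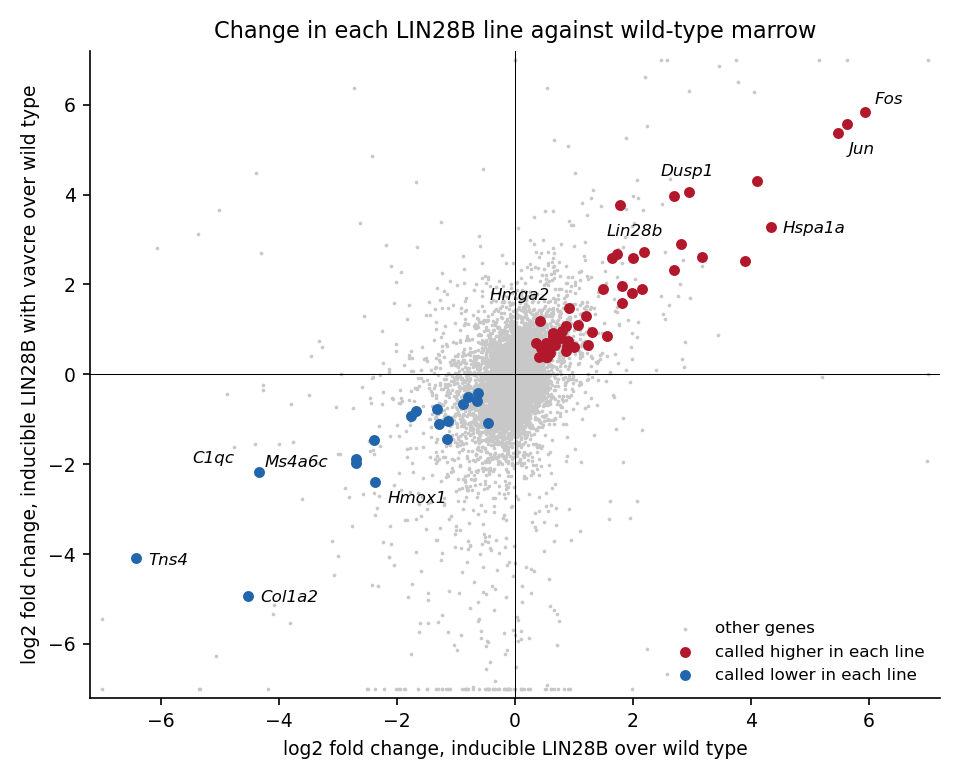
Log2 fold change of each gene in the inducible LIN28B line over wild type (horizontal) and in the inducible LIN28B line with vavcre over wild type (vertical), for the 9703 genes with at least 1 CPM in the LIN28B or wild-type mean. Red and blue points are the 48 genes called higher and the 18 called lower in each line, and values beyond 7 on either axis are drawn at 7. Fos and Jun lie among the farthest up in both lines, Lin28b and Hmga2 lie in the upper right, and gray points scatter farther along the vertical than along the horizontal axis.

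The axis genes come first because Lin28b is the gene named in the labels. Lin28b (chr10:45376617-45486314, mm10) was low but higher in every LIN28B library. It had 2.06 and 3.28 CPM in the inducible LIN28B libraries and 1.73 and 3.92 CPM in the vavcre libraries, against 0.745, 0.0586 and 0.274 CPM in wild type. No LIN28B library overlapped the wild-type range, and the log2 fold change of 2.86 (SE 0.459, adjusted p = 0.00133) was called in each line. These levels rest on 229 counts over the 4 LIN28B libraries and 21 counts over the 3 wild-type libraries, and they lie far below the 104 ± 17.6 CPM of wild-type fetal liver CMPs (SD, n = 3). The sources used here do not say whether the transgene's message is counted under Lin28b, so these levels do not check the induction.

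Hmga2, a chromatin protein of fetal and self-renewing progenitors, rose in each line. It had 60.9 and 59.5 CPM in the inducible LIN28B libraries and 85.8 and 92.2 CPM in the vavcre libraries, against 31.9, 28.5 and 35.4 CPM in wild type. The 4 LIN28B libraries all lay above the wild-type range, with a log2 fold change of 1.2 (SE 0.154, adjusted p = 0.000359). The mean of 74.6 ± 16.8 CPM (SD, n = 4) was between the wild-type marrow mean of 31.9 ± 3.46 CPM and the wild-type fetal liver mean of 532 ± 11.2 CPM (SD, n = 3 each).

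The Igf2bp genes code for RNA-binding proteins of fetal growth. Igf2bp3 had 6.37 and 6.07 CPM in the inducible LIN28B libraries and 13.5 and 6.58 CPM in the vavcre libraries, against 4.22, 3.92 and 3.73 CPM in wild type. It was called in the mean (log2 fold change 1.0, adjusted p = 0.00463) and not in the line without vavcre by itself (adjusted p = 0.318), although all 4 LIN28B libraries lay above wild type. Igf2bp1 had 0.269 to 2.07 CPM in the LIN28B libraries and 0.234 to 0.844 CPM in wild type, and Igf2bp2 had 6.66 to 11.9 CPM in the LIN28B libraries and 5.68 to 8.34 CPM in wild type. Neither was called (adjusted p = 0.216 for Igf2bp1 and 0.418 for Igf2bp2), and both groups overlapped. In wild-type fetal liver the mean levels were 280 CPM for Igf2bp3, 207 CPM for Igf2bp1 and 236 CPM for Igf2bp2. Lin28a, the paralog of Lin28b, stayed under 2 CPM in all 7 libraries and was not called (adjusted p = 0.851).

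Of 60 listed let-7 targets, 45 were tested, and 17 were called higher and 2 lower in the mean of the lines. Of the 17, 13 were shared by all 4 LIN28B libraries and 8 were called in each line: Lin28b, Hmga2, Arid3b, Nras, Dna2, Cdc34, Tgfbr1 and Dicer1. Over all genes tested, 6.59% were called higher, 7.86% lower, 3.75% were shared on the higher side and 0.354% were called higher in each line. The median log2 fold change of the 45 was 0.29 (0.19 in the line without vavcre and 0.44 in the vavcre line), against -0.07 over all genes tested (-0.02 without vavcre and -0.09 with vavcre). The list was drawn up with earlier results of these data known, so its counts are a description. They include Lin28b, the gene named in the labels. The 2 lower genes, Ccnj and Yod1, each overlapped between groups.

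Arid3b, a DNA-binding protein of the ARID family, had 41.0 and 39.1 CPM in the inducible LIN28B libraries and 30.4 and 31.9 CPM in the vavcre libraries, against 18.7, 15.1 and 14.9 CPM in wild type. All 4 LIN28B values were above all 3 wild-type values (log2 fold change 1.12, SE 0.127, adjusted p = 0.000188). Nras, a small GTPase of growth signaling, had 273 and 274 CPM in the inducible LIN28B libraries and 349 and 346 CPM in the vavcre libraries, against 215, 213 and 213 CPM in wild type. The wild-type libraries hardly differed, and the log2 fold change was 0.53 (SE 0.0590, adjusted p = 0.000166). It was larger in the vavcre line (0.70) than in the line without vavcre (0.36), a difference that was called (adjusted p = 0.00465).

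Dna2, a nuclease and helicase of DNA replication, had 159 and 172 CPM in the inducible LIN28B libraries and 166 and 181 CPM in the vavcre libraries, against 98.6, 120 and 105 CPM in wild type. Cdc34, a ubiquitin-conjugating enzyme of the cell cycle, had 161 and 185 CPM in the inducible LIN28B libraries and 204 and 195 CPM in the vavcre libraries, against 108, 112 and 110 CPM in wild type. For both genes the groups were apart, with log2 fold changes of 0.65 for Dna2 (adjusted p = 0.000251) and 0.76 for Cdc34 (adjusted p = 0.000364). Tgfbr1, a TGF-beta receptor kinase, had 145 and 128 CPM in the inducible LIN28B libraries and 157 and 177 CPM in the vavcre libraries, against 93.7, 98.6 and 71.2 CPM in wild type. Dicer1, the enzyme that cuts microRNA precursors and itself a let-7 target, had 149 and 164 CPM in the inducible LIN28B libraries and 163 and 123 CPM in the vavcre libraries, against 104, 108 and 97.1 CPM in wild type. Both lay above wild type in every LIN28B library, with log2 fold changes of 0.78 for Tgfbr1 (adjusted p = 0.000871) and 0.53 for Dicer1 (adjusted p = 0.00252).

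Other called targets changed less evenly. The transcription factor gene E2f5 (log2 fold change 0.85, adjusted p = 0.00158), the polycomb gene Cbx2 (0.81, adjusted p = 0.0121), the phosphatase gene Cdc25a (0.34, adjusted p = 0.00811) and the growth factor receptor gene Igf1r (0.36, adjusted p = 0.0247) rose in the mean of the lines but were not called in the line without vavcre, and Cbx2 was not called in the mean without wild-type library 6. Plagl2, a zinc finger gene of the PLAG family, had 105 and 89.8 CPM in the inducible LIN28B libraries and 47.8 and 61.7 CPM in the vavcre libraries, against 63.1, 58.7 and 54.8 CPM in wild type. It rose in the line without vavcre alone (log2 fold change 0.72, adjusted p = 0.0148), and the lines differed (adjusted p = 0.00104). Mycn and Cdk6 were not called in the mean (adjusted p = 0.335 and 0.0600).

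**Figure D2:**
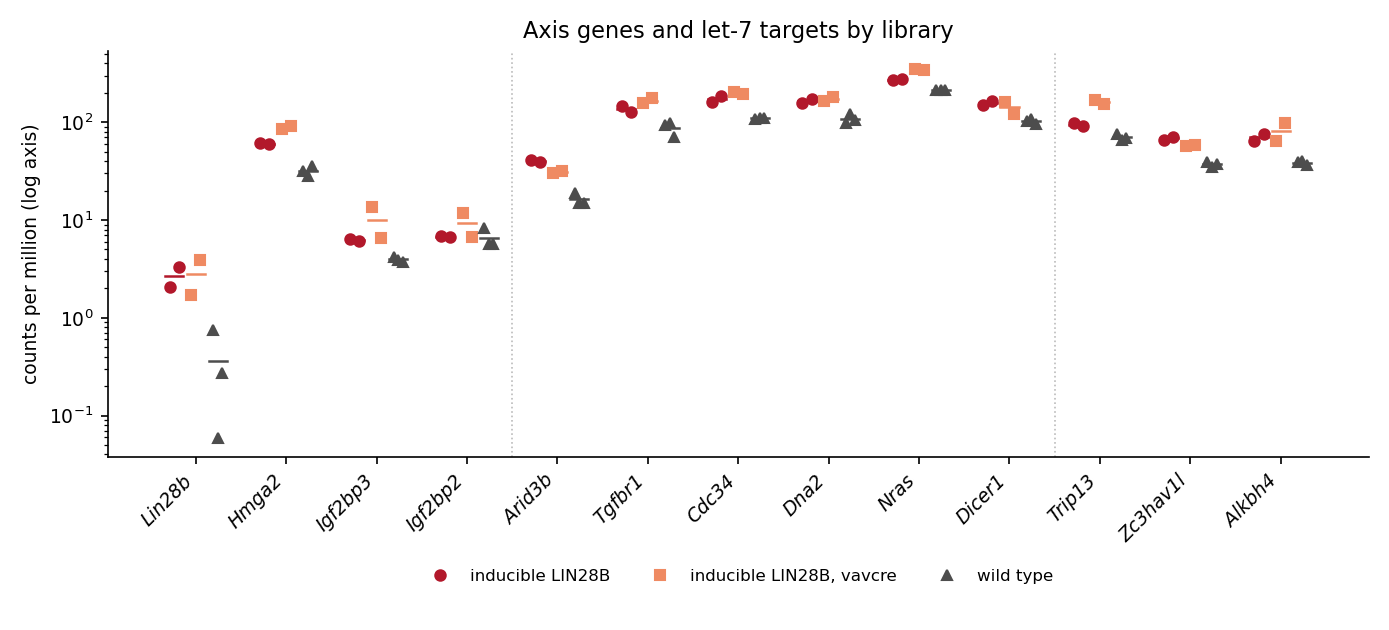
CPM of axis genes, let-7 targets and 3 genes with several seed matches on a log axis in the 2 inducible LIN28B libraries (circles), the 2 vavcre libraries (squares) and the 3 wild-type libraries (triangles), with the mean of each as a bar. Hmga2 lies at 59.5 to 92.2 CPM in the LIN28B libraries and 28.5 to 35.4 CPM in wild type, and Nras at 273 to 349 CPM in the LIN28B libraries and 213 to 215 CPM in wild type.

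The let-7 sites of these messages are shown because they carry the sequence that the seed above pairs with. The match searched was CTACCTC, the complement of bases 2 to 8, in the longest annotated 3′ UTR of each gene on the message strand (GENCODE vM21, GRCm38). Capitals mark the match in the lines below.
Hmga2, site 1: ccgacattcaatttCTACCTCag
Hmga2, site 2: cccactcctcaataCTACCTCtg
Hmga2, site 3: tgatttgcaaggaaCTACCTCca
Hmga2, site 4: atcaaaacacactaCTACCTCtt
Lin28b, site 1: cccgggcgggaagtCTACCTCat
Arid3b: atttcaataaagctCTACCTCtt
Nras: cctcttcagaataaCTACCTCct
Cdc34: cctcaggcgacagaCTACCTCac
Tgfbr1: ggaggctggttgttCTACCTCac
Trip13, site 1: ggaggtgataccgtCTACCTCac
The Hmga2 3′ UTR of 3014 bases holds 4 matches, on the minus strand at chr10:120364225-120364231, chr10:120362988-120362994, chr10:120362550-120362556 and chr10:120361692-120361698. Lin28b also holds 4, the first at chr10:45381023-45381029 on the minus strand. The single matches lie at chr9:57790362-57790368 on the minus strand for Arid3b, chr3:103064374-103064380 on the plus strand for Nras, chr10:79688127-79688133 on the plus strand for Cdc34 and chr4:47410843-47410849 on the plus strand for Tgfbr1. Dicer1 has no match in the window searched, which says only that these letters are not in it.

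Of 147 genes with at least 2 matches that are not on the target list, 18 were called higher (12.2%) and 10 lower (6.8%) in the mean of the lines, with a median log2 fold change of 0.002. The genes described next were named for their small p among those called, so their values describe them and not the class. Trip13, a helicase-like ATPase of the spindle checkpoint, has 2 matches, the first at chr13:73913184-73913190 on the minus strand. It had 98.8 and 90.7 CPM in the inducible LIN28B libraries and 167 and 155 CPM in the vavcre libraries, against 76.5, 65.9 and 69.2 CPM in wild type. It was called in each line (log2 fold change 0.81, SE 0.0778, adjusted p = 5.91e-05), and the change was larger in the vavcre line (difference 0.77, adjusted p = 0.000156). Zc3hav1l, with 3 matches, had 65.4 and 71.2 CPM in the inducible LIN28B libraries and 56.6 and 58.1 CPM in the vavcre libraries, against 39.4, 34.7 and 37.3 CPM in wild type. Alkbh4, a dioxygenase gene with 2 matches, had 64.5 and 76.5 CPM in the inducible LIN28B libraries and 65.0 and 98.1 CPM in the vavcre libraries, against 39.6, 39.9 and 36.8 CPM in wild type. Both were called in each line, with log2 fold changes of 0.75 for Zc3hav1l (adjusted p = 0.000880) and 0.97 for Alkbh4 (adjusted p = 0.000803). The DNA repair gene Smug1, also with 2 matches, had 36.5 to 61.2 CPM in the LIN28B libraries and 21.7 to 25.1 CPM in wild type (log2 fold change 0.96, adjusted p = 0.000380) but missed the threshold in the line without vavcre (adjusted p = 0.0661).

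Across the 12233 tested genes with an annotated 3′ UTR, the shared rises were more frequent among genes with a match. Among genes with 0, 1 and at least 2 matches (10975, 1099 and 159 genes), 3.49%, 7.73% and 11.3% were shared on the higher side and 3.70%, 2.82% and 1.26% on the lower side. Put the other way, 103 of 486 shared higher genes (21.2%) and 17 of 46 core higher genes (37.0%) held a match, against 33 of 439 shared lower genes (7.52%), 1 of 16 core lower genes (6.25%) and 10.3% of all. The whole distribution moved little: the median log2 change in the line without vavcre was -0.020 with no match, 0.045 with 1 and 0.107 with at least 2. In the vavcre line the medians were -0.082, -0.039 and -0.042.

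UTR length moves with the number of matches, since the median UTR was 999, 2128 and 3518 bases in the 3 classes. Among the UTRs over 1751 bases alone, 2.35%, 4.66% and 10.1% of genes with 0, 1 and at least 2 matches were shared on the higher side. Without the listed targets, 10.2% of the 147 genes with at least 2 matches were shared on the higher side and 1.36% on the lower side. Matches followed by an A, the stronger kind of site, went with a median log2 change in the mean of the lines of -0.065 for 0 such matches, 0.031 for 1 and 0.211 for at least 2 (11792, 422 and 19 genes). Genes are not independent replicates, and these shares are given without a test.

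**Figure D3:**
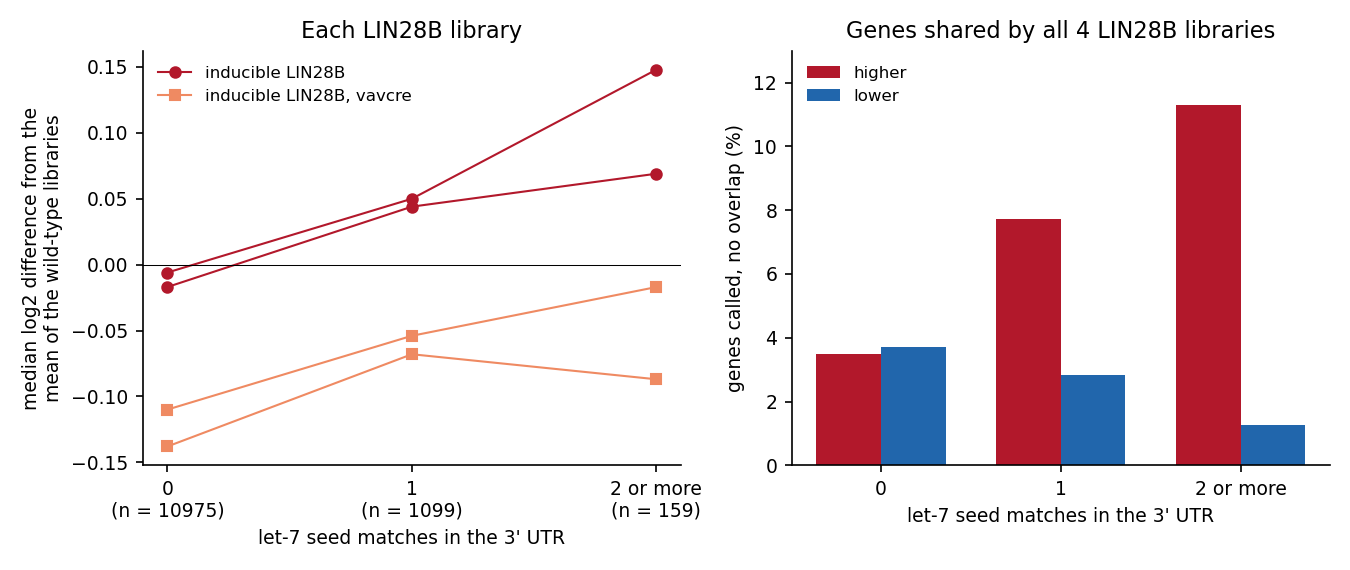
By the number of let-7 seed matches in the longest 3′ UTR, left, the median log2 difference of each LIN28B library from the wild-type mean and, right, the share of tested genes (percent) shared on the higher and on the lower side. For 0 and at least 2 matches the medians are -0.017 and 0.069 in inducible LIN28B library 1, -0.006 and 0.148 in library 5, -0.138 and -0.087 in vavcre library 4 and -0.110 and -0.017 in vavcre library 6. The share on the higher side is 3.49%, 7.73% and 11.3% for 0, 1 and at least 2 matches, and the share on the lower side is 3.70%, 2.82% and 1.26%.

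The immediate early genes, which cells switch on within minutes of a stimulus, had the largest median rise of the lists described here. Of 30 listed, 26 were tested and 15 were called in the mean of the lines, each of them higher, 14 with no overlap and 11 in each line. Over all genes tested, these shares on the higher side were 6.59%, 3.75% and 0.354%. The line without vavcre had 14 of the 26 higher, against 0.509% of all genes. The vavcre line had 13 higher and 2 lower, against 12.5% and 14.3%. The median log2 fold change of the 26 was 1.55, or 1.34 with Ccn1, which had 0 counts in wild type, at its bound. Fos, a subunit of the AP-1 transcription factor, had 32.2 and 164 CPM in the inducible LIN28B libraries and 100 and 84.3 CPM in the vavcre libraries, against 2.08, 1.11 and 1.59 CPM in wild type. Its partner Jun had 444 and 972 CPM in the inducible LIN28B libraries and 627 and 689 CPM in the vavcre libraries, against 19.1, 14.6 and 14.1 CPM in wild type. The lowest LIN28B library was far above the highest wild-type library for both, with log2 fold changes of 5.88 for Fos (SE 0.619, adjusted p = 0.000119) and 5.42 for Jun (SE 0.422, adjusted p = 1.29e-05).

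Egr1, a zinc finger transcription factor, had 36.2 and 131 CPM in the inducible LIN28B libraries and 134 and 57.7 CPM in the vavcre libraries, against 2.88, 2.40 and 9.37 CPM in wild type. Dusp1, a phosphatase that turns off MAP kinases, had 105 and 213 CPM in the inducible LIN28B libraries and 319 and 358 CPM in the vavcre libraries, against 23.2, 18.5 and 19.7 CPM in wild type. Both were above wild type in every LIN28B library, with log2 fold changes of 4.19 for Egr1 (adjusted p = 0.000723) and 3.50 for Dusp1 (adjusted p = 1.20e-05), and Dusp1 rose farther in the vavcre line (difference 1.09, adjusted p = 0.0152). Junb, another AP-1 subunit, had 160 and 298 CPM in the inducible LIN28B libraries and 465 and 418 CPM in the vavcre libraries, against 68.2, 81.5 and 69.6 CPM in wild type (log2 fold change 2.12, adjusted p = 2.15e-05). Ier2 had 218 to 399 CPM in the LIN28B libraries and 86.4 to 90.3 CPM in wild type (log2 fold change 1.70, adjusted p = 5.34e-05).

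Feedback genes of the same response moved with them. Ppp1r15a, which restores translation after stress, rose by 2.20 (adjusted p = 2.56e-05), Zfp36, which destabilizes cytokine messages, by 2.02 (adjusted p = 0.000209), Klf2 by 2.29 (adjusted p = 0.00128) and the signaling inhibitor Socs3 by 1.69 (adjusted p = 0.00150) on the log2 scale, each in each line. Fosb had 1.58 to 2.53 CPM in the LIN28B libraries and 2 counts in all over the 3 wild-type libraries, a ratio of 56.2 with a 95% counting interval of 15.3 to 468. Btg2, Ier3 and Ier5 were called in the mean and in the line without vavcre but not in the vavcre line, and Klf6 in the vavcre line but not without vavcre. Nfkbia, Fosl2, Dusp2, Rhob and Klf4 were not called in the mean of the lines and overlapped between groups. Inducible LIN28B library 5 was the highest of the 4 for Fos, Jun, Ier2 and Zfp36, and library 1 the lowest for Fos, Jun, Egr1, Dusp1 and Junb.

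These genes were also high in libraries not labelled LIN28B. In the 3 libraries of let-7b/c knockout marrow CMPs, an albino strain set against the same wild-type libraries, the means were 82.1 ± 27.8 CPM for Fos, 422 ± 27.2 CPM for Jun, 117 ± 33.5 CPM for Dusp1 and 209 ± 17.8 CPM for Ier2 (SD). Wild-type fetal liver had 4.23 ± 2.38 CPM of Fos and 45.3 ± 27.3 CPM of Jun (SD, n = 3). Hmga2, in contrast, had 7.80 ± 2.89 CPM in the let-7b/c knockout (SD, n = 3), below the wild-type marrow range.

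**Figure D4:**
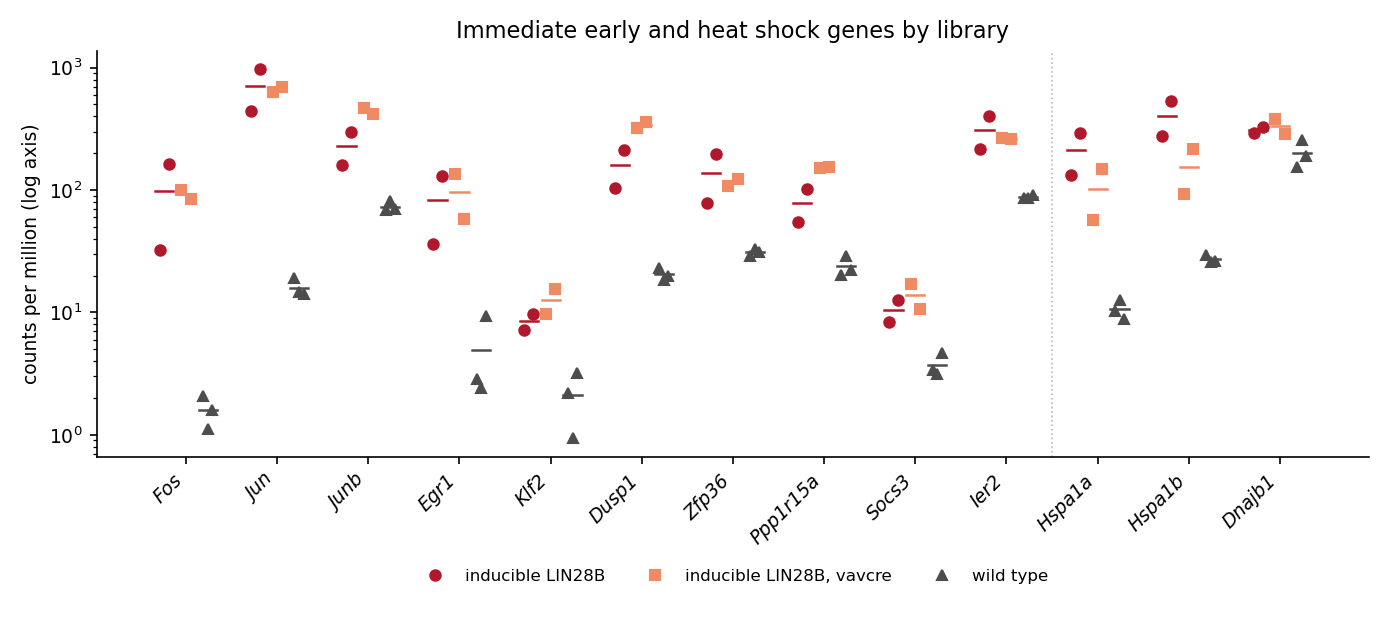
CPM of immediate early genes and the heat shock genes Hspa1a, Hspa1b and Dnajb1 on a log axis in the 2 inducible LIN28B libraries (circles), the 2 vavcre libraries (squares) and the 3 wild-type libraries (triangles), with the mean of each as a bar. Every gene drawn here has all 4 LIN28B values above all 3 wild-type values, and the gap is widest for Fos (32.2 to 164 CPM in LIN28B and 1.11 to 2.08 CPM in wild type) and Jun (444 to 972 CPM in LIN28B and 14.1 to 19.1 CPM in wild type).

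Among 15 tested heat shock genes, 3 were called in the mean of the lines, each higher, against 6.59% of all genes tested. The line without vavcre had 2 higher, against 0.509% of all genes. The vavcre line had 4 higher and 4 lower, against 12.5% and 14.3%. The log2 change was positive for 13 of the 15 without vavcre and for 6 with vavcre. Hspa1a, an inducible HSP70 chaperone, had 132 and 295 CPM in the inducible LIN28B libraries and 56.9 and 149 CPM in the vavcre libraries, against 10.3, 12.7 and 8.87 CPM in wild type. Hspa1b had 275 and 536 CPM in the inducible LIN28B libraries and 92.5 and 218 CPM in the vavcre libraries, against 29.7, 25.6 and 26.4 CPM in wild type. Their groups did not overlap, with log2 fold changes of 3.81 for Hspa1a (adjusted p = 0.000560) and 3.20 for Hspa1b (adjusted p = 0.000390), but the 2 genes are near-identical copies and how reads were split between them is uncertain. Dnajb1, an HSP70 helper, rose by 0.69 (adjusted p = 0.00524). The abundant chaperone genes Hspa8 and Hsp90aa1 were not called in the mean of the lines (adjusted p = 0.254 and 0.364), and the median over the 15 genes was -0.09. In the let-7b/c knockout the means were 170 ± 87.7 CPM for Hspa1a and 249 ± 131 CPM for Hspa1b (SD, n = 3).

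Promoters are shown for the genes with a motif known from these responses. The window was 250 bases before to 50 after the gene start (RefSeq, GRCm38.p6, first promoter of each gene), and all motifs read the same on both strands, and none contains another. The cyclic AMP response element TGACGTCA stood in 3 of 13 called immediate early genes with a promoter in the table, against 1.88% of 27025 promoters. The heat shock pair GAANNTTC stood in 2 of the 3 called heat shock genes, the near-identical copies Hspa1a and Hspa1b, against 7.95% of promoters. Among the 13 immediate early genes it stood in 1, Jun (7.69%), near the share of all promoters. The AP-1 motif TGANTCA stood in 0 of the 13, against 7.93%, and draws no statement on AP-1. Capitals mark the motif.
Dusp1, chr17:26508600-26508623, minus strand: agggcgggTGACGTCAccgcccgg
Btg2, chr1:134079306-134079329, minus strand: cccaataaTGACGTCAgtgagcga
Ppp1r15a, chr7:45526265-45526288, minus strand: ctctccggTGACGTCAgcacagcg
Jun, chr4:95052335-95052358, minus strand: ccagagaaGAATCTTCtagggtga
Hspa1a, chr17:34972245-34972268, minus strand: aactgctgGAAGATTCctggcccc
Hspa1b, chr17:34959327-34959350, minus strand: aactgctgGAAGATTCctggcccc
The Hspa1a and Hspa1b stretches are the same in all 24 bases. A match is a description of the sequence and not of binding.

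Most macrophage genes fell, and a minority of the monocyte genes. Of 14 tested macrophage genes, 9 were called, each lower, 7 with no overlap and 2, Hmox1 and C1qc, in each line. Over all genes tested, these shares on the lower side were 7.86%, 3.61% and 0.133%. The median log2 fold change of the 14 was -2.83 (-3.03 with Timd4 at its bound). Their summed level was 26.6 to 77.8 CPM in the LIN28B libraries and 93.0 to 107 CPM in wild type. Hmox1, the enzyme that breaks down heme, had 3.88 and 4.25 CPM in the inducible LIN28B libraries and 5.53 and 2.49 CPM in the vavcre libraries, against 24.5, 24.6 and 14.5 CPM in wild type. All LIN28B values lay below wild type, and the log2 change of -2.39 (SE 0.292, adjusted p = 0.000246) was nearly equal in the lines.

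Vcam1, the adhesion molecule of marrow macrophages and stroma, had 1.09 and 2.90 CPM in the inducible LIN28B libraries and 0.0422 and 2.57 CPM in the vavcre libraries, against 9.23, 12.4 and 19.6 CPM in wild type (log2 fold change -3.08, adjusted p = 0.00446). The complement gene C1qc had 0.303 and 0.0537 CPM in the inducible LIN28B libraries and 0.127 and 1.48 CPM in the vavcre libraries, against 3.62, 3.92 and 3.34 CPM in wild type (log2 fold change -3.26, adjusted p = 0.00364). Timd4, a receptor of resident macrophages, had 0 counts in all 4 LIN28B libraries, against 0.410 to 0.943 CPM in wild type, so it was at least 17.8-fold lower (3 counts over the group). The genes that mark these cells most widely did not all fall: Adgre1, the F4/80 antigen, and Slc40a1, the iron exporter, overlapped between groups and were not called (adjusted p = 0.657 and 0.308). Macrophages are not CMPs, and the part that such cells in the sort have in these values was not tested.

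Of 24 tested monocyte and dendritic cell genes, 1 was called higher and 8 lower, against 6.59% and 7.86% of all genes tested. Among the 24, 7 were called lower with no overlap, against 3.61% of all genes, and 15 were not called. The median log2 fold change was -0.34 in the mean of the lines, -0.68 without vavcre and -0.16 with vavcre. Ms4a6c, a membrane protein of monocytes, had 6.92 and 8.81 CPM in the inducible LIN28B libraries and 16.9 and 8.95 CPM in the vavcre libraries, against 49.3, 51.2 and 52.0 CPM in wild type. It was called in each line (log2 fold change -2.33, SE 0.232, adjusted p = 7.66e-05) and in the fit with the 4 libraries as 1 group. Ly86, a partner of an innate receptor, had 10.6 and 9.30 CPM in the inducible LIN28B libraries and 14.5 and 21.2 CPM in the vavcre libraries, against 28.1, 36.5 and 37.2 CPM in wild type. It too was called in each line (log2 fold change -1.35, adjusted p = 0.00105), with a larger fall without vavcre.

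The classical monocyte gene Ly6c2 had 16.9 and 17 CPM in the inducible LIN28B libraries and 5.40 and 23.6 CPM in the vavcre libraries, against 55.5, 64.4 and 78.7 CPM in wild type (log2 fold change -2.08, adjusted p = 0.00547). Ccr2, the receptor that draws monocytes out of the marrow, had 17.6 and 6.88 CPM in the inducible LIN28B libraries and 3.17 and 36.4 CPM in the vavcre libraries, against 49.9, 60.8 and 68.3 CPM in wild type (log2 fold change -1.94, adjusted p = 0.0138). Both were below wild type in all 4 libraries but not called in the line without vavcre alone, and Ccr2 was not called in the mean without wild-type library 6 or inducible LIN28B library 5. Csf1r, the receptor of macrophage colony-stimulating factor, fell in the line without vavcre (44.7 and 34.5 CPM, against 91.5, 113 and 100 CPM in wild type) but was not called in the vavcre libraries (81.7 and 89.3 CPM), and the lines differed (adjusted p = 0.00181). H2-Ab1, an MHC class II chain, was the gene that rose, to 53.0 to 66.1 CPM in the LIN28B libraries, against 31.6 to 39.7 CPM in wild type (log2 fold change 0.82, adjusted p = 0.00248, called in each line).

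In the let-7b/c knockout marrow, by contrast with the LIN28B libraries, the monocyte genes were high: the means were 91.1 ± 29.2 CPM for Ms4a6c, 161 ± 73.8 CPM for Ly6c2 and 1471 ± 205 CPM for Ccr2 (SD, n = 3). These libraries were set against the same wild-type libraries and are given only for their level. Without the vavcre libraries, 6 monocyte genes and 4 macrophage genes were called lower.

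**Figure D5:**
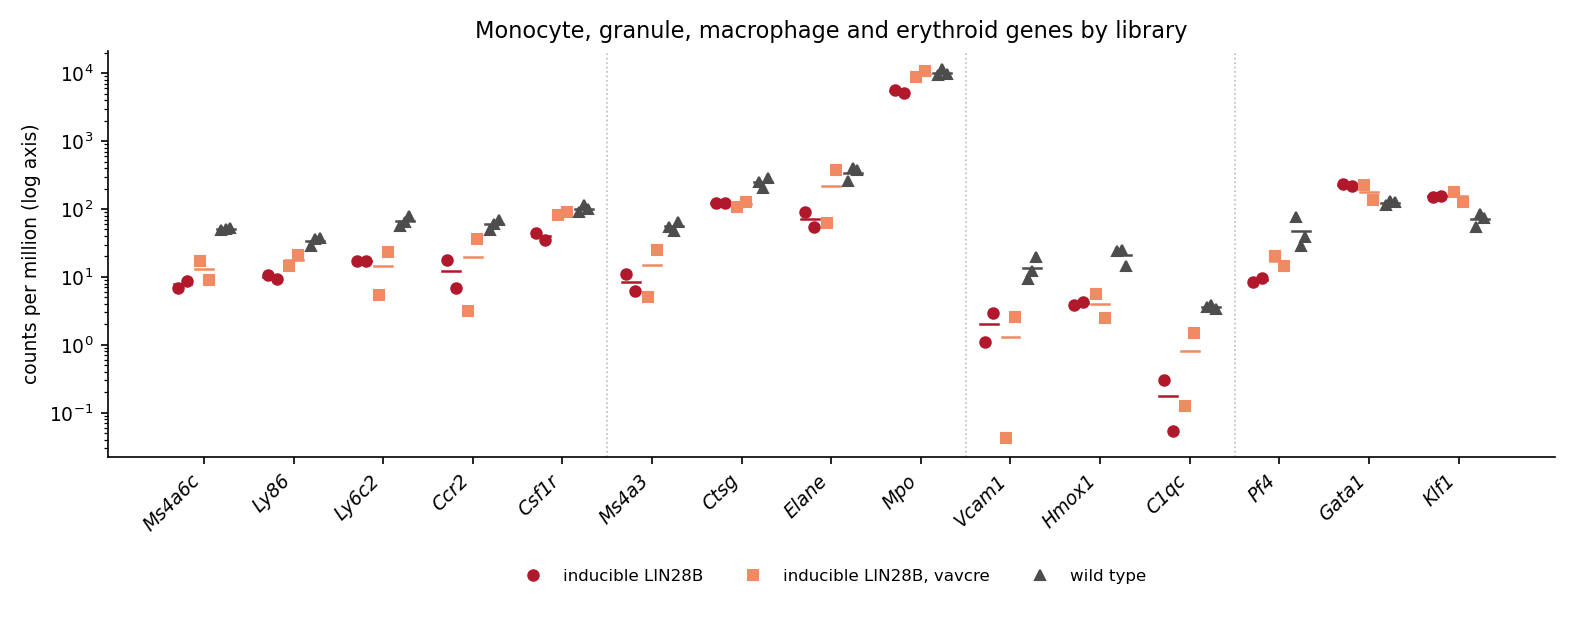
CPM of macrophage, monocyte and granule genes, of the platelet gene Pf4 and of erythroid regulators on a log axis in the 2 inducible LIN28B libraries (circles), the 2 vavcre libraries (squares) and the 3 wild-type libraries (triangles), with the mean of each as a bar. Ms4a6c lies at 6.92 to 16.9 CPM in the LIN28B libraries and 49.3 to 52.0 CPM in wild type, and Klf1 at 128 to 180 CPM in the LIN28B libraries and 54.0 to 85.8 CPM in wild type.

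Primary granule genes of the granulocyte path fell in part. Of 11 tested, 4 were called, each lower, against 7.86% of all genes tested. Leaving out any single wild-type library brought the 4 to 2. Ms4a3, a marker of granulocyte and monocyte progenitors, had 11.0 and 6.13 CPM in the inducible LIN28B libraries and 5.02 and 24.9 CPM in the vavcre libraries, against 55.0, 47.6 and 63.4 CPM in wild type (log2 fold change -2.29, adjusted p = 0.00242, called in each line). Ctsg, the granule protease cathepsin G, had 124 and 121 CPM in the inducible LIN28B libraries and 108 and 126 CPM in the vavcre libraries, against 247, 202 and 291 CPM in wild type (log2 fold change -1.04, adjusted p = 0.00521). Elane, neutrophil elastase, had 90.2 and 53.6 CPM in the inducible LIN28B libraries and 62.4 and 375 CPM in the vavcre libraries, against 256, 400 and 377 CPM in wild type: vavcre library 6 alone lay in the wild-type range. Its call (adjusted p = 0.0473) held in the fit without vavcre library 6 and was lost without any other single library. Mpo and Prtn3 missed the threshold (adjusted p = 0.0589 and 0.0511), and of 13 late neutrophil genes edgeR called 0, with 2 at an unadjusted p under 0.05, 1 called by DESeq2 and 0 by voom.

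Of 26 tested erythroid genes, 2 regulators, Gata1 and Klf1, were called, both higher, a share near the 6.59% of all genes called higher. The log2 change was positive for 18 of the 26 and negative for 8, with a median of 0.29 in the mean of the lines and 0.02 without vavcre. In the vavcre line 5 were called higher and 1 lower. Their summed level was 2683 to 3100 CPM in the LIN28B libraries and 1754 to 2211 CPM in wild type, without overlap. Gata1, the master regulator of red cell and platelet fate, had 232 and 221 CPM in the inducible LIN28B libraries and 222 and 135 CPM in the vavcre libraries, against 113, 131 and 128 CPM in wild type. All 4 lay above wild type, vavcre library 6 by little, and it was called in each line (log2 fold change 0.69, adjusted p = 0.00603). Klf1, which switches on globin genes, had 152 and 157 CPM in the inducible LIN28B libraries and 180 and 128 CPM in the vavcre libraries, against 54.0, 85.8 and 73.4 CPM in wild type (log2 fold change 1.12, adjusted p = 0.0115). It was not called in the line without vavcre alone (adjusted p = 0.119), nor in the mean without wild-type library 2. The receptor genes Epor and Tfrc were not called and overlapped between groups.

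Of 18 megakaryocyte genes, 2 were called lower, against 7.86% of all genes tested. Pf4, a platelet chemokine, had 8.32 and 9.73 CPM in the inducible LIN28B libraries and 20.2 and 14.6 CPM in the vavcre libraries, against 75.8, 28.2 and 38.8 CPM in wild type, and was called in each line (log2 fold change -1.93, adjusted p = 0.00114). Of 18 stem and multipotent progenitor genes, 4 were called lower, all 4 also in the vavcre line. In the line without vavcre edgeR called 0 of the 18 lower, with 2 at an unadjusted p under 0.05, 1 called by DESeq2 and 0 by voom. Cd48, an adhesion receptor of committed progenitors, had 202 and 213 CPM in the inducible LIN28B libraries and 166 and 160 CPM in the vavcre libraries, against 298, 262 and 336 CPM in wild type (log2 fold change -0.70, adjusted p = 0.00102). The stem cell receptor gene Procr had 3.83 and 5.54 CPM in the inducible LIN28B libraries and 0 in both vavcre libraries, against 3.18, 2.81 and 3.23 CPM in wild type, so its call rests on the vavcre libraries.

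Markers of other cell types showed few shared changes. Among 20 lymphoid genes, 1 was called in the mean of the lines, against 6.59% of all genes called higher. It was Cd3d, with 0.182 to 2.62 CPM in the LIN28B libraries and 0 counts in wild type, at least 26.2-fold higher (3 counts over the group). In the vavcre line 5 of the 20 were called higher, against 12.5% of all genes, and the list's median log2 fold change was 0.86. In the line without vavcre edgeR called 0, with 1 higher and 1 lower at an unadjusted p under 0.05. Among 9 stroma and endothelium genes, 2 were called lower, against 7.86% of all genes tested, and 1 of these had no overlap. That gene, Col1a2, a collagen chain, had 0.0422 to 0.121 CPM in the LIN28B libraries and 1.04 to 3.92 CPM in wild type. It was called in each line (log2 fold change -4.73, adjusted p = 0.00105), and its LIN28B levels rest on few counts. Of 15 hepatocyte genes edgeR called 0, as did DESeq2 and voom, with 2 at an unadjusted p under 0.05.

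Translation and division genes showed where the vavcre line differed. Of 76 tested ribosomal protein genes, 2 were called higher and 56 lower in the mean of the lines, 59 were lower in the vavcre line, and the lines differed for 56. In the line without vavcre edgeR called 0, as did DESeq2 and voom, with 3 lower at an unadjusted p under 0.05. Their summed level was 64170 and 72720 CPM in the inducible LIN28B libraries and 49970 and 45110 CPM in the vavcre libraries, against 77620, 63890 and 83730 CPM in wild type. Only 1 of the 56 was shared by all 4 libraries. Over all genes tested, 7.86% were lower in the mean and 14.3% in the vavcre line, and the lines differed for 20.6%. Rpl36 had 510 and 576 CPM in the inducible LIN28B libraries and 202 and 184 CPM in the vavcre libraries, against 626, 511 and 634 CPM in wild type. Many of these genes have pseudogene copies, so single levels are uncertain.

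Of 24 tested mitosis genes, 8 were called higher and 1 lower in the mean, against 6.59% and 7.86% of all genes tested. The vavcre line had 11 higher, against 12.5%. In the line without vavcre edgeR, DESeq2 and voom called 0 higher, with 0 at an unadjusted p under 0.05. On the lower side of that line edgeR and voom called 0 and DESeq2 1, with 4 at an unadjusted p under 0.05 by edgeR. The list's median log2 fold change was -0.07 without vavcre and 0.41 with vavcre. Plk1, a mitotic kinase, had 160 and 153 CPM in the inducible LIN28B libraries and 442 and 352 CPM in the vavcre libraries, against 137, 148 and 139 CPM in wild type (log2 fold change 0.82, adjusted p = 0.000566). All 4 libraries were above wild type, but the rise was 0.15 without vavcre and 1.49 with vavcre. Of 29 replication genes, 6 were called higher and 2 lower in the mean, against 6.59% and 7.86% of all genes tested. The vavcre line had 9 higher and 2 lower, against 12.5% and 14.3%. For the line without vavcre edgeR called 0, with 2 higher and 1 lower at an unadjusted p under 0.05. DESeq2 called 1 lower there and voom 0. Mcm2, a subunit of the replicative helicase, rose in the mean, with 750 to 1057 CPM in the LIN28B libraries and 610 to 680 CPM in wild type (log2 fold change 0.46, adjusted p = 0.00198).

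Among imprinted growth genes, 1 of 14 was called, against 6.59% of all genes called higher. Igf2r, the receptor that clears the growth factor IGF2, had 11.7 and 17 CPM in the inducible LIN28B libraries and 6.50 and 18.7 CPM in the vavcre libraries, against 4.22, 2.75 and 3.83 CPM in wild type (log2 fold change 1.89, adjusted p = 0.00115, called in each line). Its 3′ UTR holds 1 let-7 match, at chr17:12683037-12683043 on the minus strand.
Igf2r: acctgctccgtgccCTACCTCat

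The rest of the core belonged to none of these lists, or to one with few calls, and is named because it was called in each line, a choice made after its values were seen. Cenpv, a centromere protein gene, had 36.1 and 37.3 CPM in the inducible LIN28B libraries and 39.5 and 38.5 CPM in the vavcre libraries, against 13.3, 17.1 and 17.4 CPM in wild type (log2 fold change 1.25, adjusted p = 0.000212). Emid1 had 136 to 162 CPM in the LIN28B libraries and 67.8 to 72.2 CPM in wild type, and the integrin gene Itgb7 had 116 to 120 CPM in the LIN28B libraries and 65.6 to 72.4 CPM in wild type. These 3 genes were nearly level among the 4 LIN28B libraries and also called with the 4 as 1 group.

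Apoe, a lipid carrier, had 1319 and 1343 CPM in the inducible LIN28B libraries and 1105 and 950.0 CPM in the vavcre libraries, against 648, 718 and 643 CPM in wild type (log2 fold change 0.80, adjusted p = 0.00679). Gadd45g, a growth arrest gene, had 13.3 to 29.6 CPM in the LIN28B libraries and 4.22 to 7.20 CPM in wild type (log2 fold change 1.88, adjusted p = 0.000469), and the chemokine gene Ccl4 had 7.71 to 22.8 CPM in the LIN28B libraries and 2.33 to 4.74 CPM in wild type (log2 fold change 2.45, adjusted p = 0.00119). Fermt3, an activator of blood cell integrins, had 940 to 989 CPM in the LIN28B libraries and 641 to 703 CPM in wild type (log2 fold change 0.51, adjusted p = 0.00252). Zcchc3, Rbm38, Pigs, Dpp3 and Acss1, each with at least 1 let-7 match, rose by 0.89, 0.62, 0.50, 0.66 and 0.46 on the log2 scale.

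On the lower side, Mat2a, which makes the methyl donor S-adenosylmethionine, had 574 and 561 CPM in the inducible LIN28B libraries and 370 and 366 CPM in the vavcre libraries, against 734, 851 and 743 CPM in wild type (log2 fold change -0.76, adjusted p = 2.85e-05). Bcl2, the survival factor, had 138 to 164 CPM in the LIN28B libraries and 203 to 221 CPM in wild type (log2 fold change -0.53, adjusted p = 0.000585). Plac8, a gene of myeloid progenitors and granulocytes, had 485 to 604 CPM in the LIN28B libraries and 845 to 1055 CPM in wild type (log2 fold change -0.77, adjusted p = 0.00335). The leukocyte tetraspanin gene Cd53 had 153 to 210 CPM in the LIN28B libraries and 245 to 316 CPM in wild type, and Nlrp1a, an inflammasome sensor, had 9.62 to 14.1 CPM in the LIN28B libraries and 21.6 to 31.9 CPM in wild type (log2 fold changes -0.65 and -1.29).

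The largest shared changes outside the lists were less even between libraries. Cstdc5, of the stefin A family of protease inhibitors, had 11.3 and 0.860 CPM in the inducible LIN28B libraries and 29.4 and 106 CPM in the vavcre libraries, against 0, 0.0586 and 0.438 CPM in wild type. The log2 fold change of 6.90 (adjusted p = 0.00120) is uncertain, since its family holds near-identical copies. Olfm4, a neutrophil granule gene, had 5.04 to 36.9 CPM in the LIN28B libraries and 0 to 2.57 CPM in wild type (log2 fold change 2.99, adjusted p = 0.0286). Among the falls, the adhesion gene Alcam had 1.27 to 7.42 CPM in the LIN28B libraries and 16.2 to 21.8 CPM in wild type (log2 fold change -1.96, adjusted p = 0.00798), the transporter gene Slc16a11 had 0.464 to 4.84 CPM in the LIN28B libraries and 11.7 to 13.7 CPM in wild type (-2.45, adjusted p = 0.00252), and the basement membrane gene Col4a1 had 1.94 to 5.58 CPM in the LIN28B libraries and 10.4 to 11.2 CPM in wild type (-1.70, adjusted p = 0.0291). Crebl2 and Smco4 also fell, by 2.50 and 1.74 on the log2 scale, and both fell farther in the vavcre line. Alcam, Slc16a11, Col4a1, Crebl2, Smco4, Olfm4 and Cstdc5 were not called in the line without vavcre. The call of Col4a1 in the mean held only without vavcre library 4 among the fits that left out 1 library, and that of Olfm4 only without vavcre library 4 or wild-type library 6.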

How the data were processed

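RNA was measured in CMPs sorted from 7 marrow libraries, from total RNA with ultra-low-input cDNA synthesis, per the labels' protocols. The authors deposited raw read counts per RefSeq transcript, and per the submitters' processing notes cutadapt, TopHat2, HTSeq and mm10 were used. The sources used here give no versions, strand setting or order of steps. Without a strand, reads of overlapping or antisense genes cannot be told apart. Ambiguous reads and reads in no feature did not enter library sizes or tests. Ambiguous reads were 26.28% to 27.73% in the LIN28B libraries and 24.29% to 25.43% in wild type. Reads in no feature were 13.99% to 19.15%, lower in every LIN28B library than in wild type. How far this moves with any result was not tested.

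RefSeq (GRCm38.p6) named 33435 of 33818 accessions and GENCODE vM21 another 191. Summing the transcripts of each gene gave 24416 genes. Of the 5108 genes with more than 1 transcript, 1328 were at 0.

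The quasi-likelihood test of edgeR 4.0.16 (R 4.3.3, TMM, filterByExpr) was run two-sided on all 17 libraries at once, with a mean for each of 7 groups, leaving 10 residual degrees of freedom, and p-values were adjusted over 13558 genes. The tested value was the mean of the 2 lines minus wild type, then each line, then their difference (vavcre minus no vavcre). CPM ranges used log2 CPM with a prior count of 2. A fold against a group at 0 counts is a bound from 3 counts over the group, and one against 1 to 3 counts has a 95% exact interval. Intervals and bounds cover counting error only. The fit was tested on simulated data with the same spread per gene in every group. That test does not cover the larger spread between the vavcre libraries. Tables and figures used Python 3.11.15 with pandas 2.3.3, numpy 2.4.6, scipy 1.17.1 and matplotlib 3.10.9.

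The comparison, lists and members were chosen with earlier results of these data known. Named by rule were the axis list, the 12 largest shared rises and falls at 10 CPM or more, up to 4 called members of each list, and the 6 called genes with at least 2 seed matches and the smallest p. Other genes named are list members, core genes or, for the fit with 1 group, called genes, chosen after their values were seen. Some genes that these rules name or list are not reported here. Alternatives used limma 3.58.1 and DESeq2 1.42.0. Replicate numbers did not pair libraries (r = -0.041 for number 5 and 0.029 for number 6), so no block entered the fit.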

Additional observations from a re-analysis of the deposited data

Results flagged for a closer look

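The change against wild type differed between the lines, by edgeR's test of the difference itself, for 2799 of 13558 genes (20.6%) at an adjusted p under 0.05. Of the 93 genes named by rule and reported here, 42 were among them. Apart from the axis list, the rules named only genes called in the mean of the lines, where most calls came from the vavcre line. The 42 therefore describe a chosen set. Values below are log2 differences, the vavcre line minus the line without vavcre, each line being set against the same wild-type libraries. Since both vavcre libraries stand apart, a line effect and a library effect cannot be told apart.

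In 14 of these genes the vavcre line was lower. Procr had 0 counts in both vavcre libraries, and its difference is a bound of -6.21 from 3 counts over these libraries. The difference was -3.92 for the matrix gene Bgn, -2.35 for Crebl2, -2.32 for Smco4, -1.59 for the stem cell regulator Mecom and -0.82 for Myct1. Among ribosomal protein genes it was -1.49 for Rpl36, -1.0 for Rpl39, -0.98 for Rpl37a and -0.91 for Rpl9. Among sterol genes it was -0.82 for Insig1 and -0.56 for Srebf2. In the antigen presentation genes it was -1.03 for H2-K1 and -0.45 for Calr.

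In 28 of them the vavcre line was higher. Among division and replication genes the difference was 1.34 for Plk1, 0.95 for Cdca8, 0.72 for Aurkb, 0.71 for Ccnb2, 0.8 for Rfc4, 0.77 for Rrm2, 0.54 for Ccnd2, 0.39 for Mcm2 and 0.25 for Mcm7. Of seed-matched and target genes it was 0.77 for Trip13, 0.67 for Smug1 and 0.35 for Nras. Immediate early genes had 1.09 for Dusp1, 0.96 for Ppp1r15a and 0.95 for Junb. Myeloid genes had 1.11 for Csf1r and 0.85 for Ly86, both with the larger fall in the line without vavcre. Energy genes had 0.7 for Uqcrc1, 0.7 for Ndufaf6, 0.35 for Ndufb7, 0.26 for Sdha, 0.86 for Slc2a3 and 0.65 for Pfkl. Interferon response genes had 1.43 for Rtp4, 0.8 for Cmpk2 and 0.47 for Lgals3bp. The polycomb gene Eed had 0.42 and Cstdc5 had 3.5.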

How the results depend on the processing

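The gene count depended on how the difference between the lines entered the fit. In 7 libraries with 3 group means the mean of the lines gave 562 genes higher and 570 lower, 299 of these shared on the lower side, with 50 called in the line without vavcre and a core of 21 higher and 8 lower. With LIN28B as 1 group, 7 genes were higher and 4 lower, all 7 and 4 shared. Without both vavcre libraries, an alternative chosen after the data were seen, 138 were higher and 105 lower. The DESeq2 Wald test called 387 genes in the line without vavcre and a core of 123 higher and 77 lower, and no filter on low counts gave 191 in that line and 39 core genes lower.

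The replicate block, which pairs libraries that share only a number, gave 142 higher and 132 lower, 111 and 69 of these shared. It gave 16 genes in the line without vavcre, 1539 with vavcre, 435 that differed between the lines, and a core of 9 higher and 1 lower, with 4 residual degrees of freedom. Leaving out 1 library gave 537 to 1147 genes higher, 558 to 1525 lower, 313 to 656 shared lower, 26 to 242 in the line without vavcre, 1376 to 3152 that differed between the lines, and a core of 14 to 79 higher and 2 to 45 lower. Leaving out any LIN28B library leaves its line with 1 library, assumed to vary like the other groups. The ends of the core ranges come from such fits and rest on that assumption.

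The difference in median log2 change between genes with at least 2 seed matches and with 0 was 0.128 without vavcre and 0.081 in the mean. It was 0.277 and 0.276 for matches followed by an A, 0.040 without vavcre with no filter, and 0.036 to 0.104 in the mean leaving out 1 library. The direction of H2-K1 (0.072), Procr (0.613) and Lin28a (-0.617) turned without both vavcre libraries. Lin28a, from -0.618 to 0.849 leaving out 1 library, also turned without wild-type library 5 (-0.019), inducible LIN28B library 5 (-0.108) and vavcre library 6 (-0.618). The causes were not tested. Of the 66 core genes, 64 were called in the mean with 3 group means, 9 with LIN28B as 1 group and 50 with the block. Immediate early genes called higher were 4 with LIN28B as 1 group, 12 with the block and 14 without vavcre. The let-7 targets called higher were 0, 7 and 12, and macrophage genes called lower 0, 4 and 4. Levels under 1 CPM rest on few counts: 3 counts over the 4 LIN28B libraries are 0.0364 CPM, and over the 3 wild-type libraries 0.0541 CPM.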

Other observations

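The list counts in this section stand beside 6.59% of all tested genes called higher and 7.86% called lower in the mean of the lines. Energy and metabolic genes showed scattered changes. Of 81 tested oxidative phosphorylation genes, 13 were called higher and 3 lower in the mean of the lines, and 26 were higher in the vavcre line. In the line without vavcre edgeR, DESeq2 and voom called 0, with 2 higher at an unadjusted p under 0.05. Uqcrc1, a core subunit of complex III, had 892 and 768 CPM in the inducible LIN28B libraries and 1349 and 1342 CPM in the vavcre libraries, against 607, 748 and 664 CPM in wild type (log2 fold change 0.65, adjusted p = 0.00133). Sdha, of complex II, had 709 to 885 CPM in the LIN28B libraries and 630 to 652 CPM in wild type (log2 fold change 0.30, adjusted p = 0.00303). Of 17 glycolysis genes, 2 were called higher, among them Pfkl, a phosphofructokinase, with 316 to 550 CPM in the LIN28B libraries and 280 to 300 CPM in wild type. The log2 change was negative for 13 of the 17, with a median of -0.14. On the lower side edgeR and voom called 0 and DESeq2 3. The vavcre line had 2 higher and 3 lower, against 12.5% and 14.3% of all genes. For the line without vavcre edgeR, DESeq2 and voom called 0, with 1 higher at an unadjusted p under 0.05 by edgeR. Of 18 cholesterol synthesis genes, 2 were called higher and 3 lower. Dhcr7, the last enzyme of the pathway, was called in each line, with 44.5 to 88.9 CPM in the LIN28B libraries and 27.8 to 50.7 CPM in wild type.

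Of 33 interferon response genes, 3 were called higher and 3 lower. In the line without vavcre edgeR called 0, with 5 lower at an unadjusted p under 0.05, 2 called by DESeq2 and 1 by voom. Of 13 antigen presentation genes, 3 were called lower. For the line without vavcre edgeR and voom called 0 and DESeq2 1 lower, with 2 lower at an unadjusted p under 0.05 by edgeR. Erap1, a peptide trimmer, had 132 to 180 CPM in the LIN28B libraries and 229 to 237 CPM in wild type (log2 fold change -0.57, adjusted p = 0.000803), with no overlap between groups. Of 18 polycomb genes, 3 were called higher and 2 lower. For the line without vavcre edgeR and voom called 0 and DESeq2 1 higher, with 2 higher at an unadjusted p under 0.05 by edgeR. Among microRNA pathway genes, Tarbp2, a Dicer partner, had 7.25 to 9.46 CPM in the LIN28B libraries and 4.05 to 5.04 CPM in wild type (log2 fold change 0.83, adjusted p = 0.0260), a call lost without wild-type library 2 or 6 or inducible LIN28B library 1. Of 18 mast cell and basophil genes, 2 were called higher and 1 lower. The line without vavcre had 2 higher, against 0.509% of all genes tested. The vavcre line had 2 higher and 6 lower, against 12.5% and 14.3%. Hdc, which makes histamine, had 145 to 204 CPM in the LIN28B libraries and 93.0 to 110 CPM in wild type (log2 fold change 0.69, adjusted p = 0.0103, lost without wild-type library 2). The basophil protease gene Prss34 had 30.1 and 0.806 CPM in the inducible LIN28B libraries and 4.22 and 323 CPM in the vavcre libraries, against 0.0993, 0.176 and 3.94 CPM in wild type, so vavcre library 6 held most of its counts, and the call was lost in 5 of the 7 fits that left out 1 library. Of 11 D cyclin and cell cycle inhibitor genes, 3 were called higher, among them the inhibitor Cdkn2d, with 69.2 to 90.9 CPM in the LIN28B libraries and 55.6 to 60.2 CPM in wild type. For the line without vavcre edgeR, DESeq2 and voom called 0 of the 11, with 2 higher at an unadjusted p under 0.05 by edgeR.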
